A study of Mus musculus with 7 samples.

Results

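Collagen chains are the polypeptides that wind in groups around each other into the triple helices of the extracellular matrix, and their genes were followed here through the reprogramming of mouse fibroblasts and the later conversion of the reprogrammed cells. The members were all protein-coding genes with a symbol of the form Col, number, a, number. There were 44 of them, of 27 collagen types, among the 29267 genes in the RNA-Seq tables, and all 44 were found by their Ensembl identifiers. In 25 chains the level reached at least 5 TPM (RSEM's transcript abundance, a level per transcript length with the same sum in every library) in 1 library or more, and these are given library by library. The other 19 stayed at or under 4.51 TPM, and *Col19a1* had no counts in any library.

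Each chain is made in the endoplasmic reticulum, where prolyl and lysyl hydroxylases modify it with vitamin C as a cofactor, and it is folded with the chaperone HSP47 before secretion, trimming and crosslinking. Fibrillar collagens such as types I, III and V form the rope-like fibrils of connective tissue and are a hallmark of fibroblasts. Type IV builds the sheet of basement membranes, type VI forms beaded filaments, type VII anchoring fibrils, FACIT collagens sit on the surface of fibrils, some collagens are transmembrane proteins, and the multiplexins XV and XVIII are basement membrane proteoglycans.

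There were 7 mRNA-Seq libraries made from total RNA, 1 for each group and so without replicates. The starting cells were mouse embryonic fibroblasts (MEFs) from OG2 mice, whose Oct4GFP transgene expresses GFP from the *Oct4* promoter without its proximal enhancer and marks cells that become pluripotent. They were infected with retroviruses for *Oct4*, *Sox2*, *Klf4* and *c-Myc*, kept in mES medium (with serum, LIF and vitamin C) or in the serum-free, chemically defined 5C medium (with N2 supplement, bFGF, LIF and vitamin C), and sorted on day 15 at passage 0 into cells with and without GFP, called Oct4GFP+ and Oct4GFP- with the medium in front. 5C-Oct4GFP+ cells were also converted in naive medium (LIF with inhibitors of MEK and GSK3) or in primed medium (bFGF and activin A), and R1 ESCs-primed are cells of the embryonic stem cell line R1 brought to the primed state on MEF feeders and then kept on serum-coated plates with a GSK3 inhibitor and IWR-1 in place of bFGF and activin A, all 3 at passage 20 by the labels. The paper states that GFP fluorescence was lost in primed medium, so 5C-Oct4GFP+ (primed) names the origin of those cells. The sources do not state the duration of the conversion uniformly, and the libraries of untreated MEFs and of naive R1 ESCs were not analysed here. In bulk RNA, fewer cells of a type and less RNA per cell cannot be told apart.

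The expected counts summed to between 6108252 and 11496615 per library. At these totals 3 counts on a chain were worth a median of 0.102 to 0.211 TPM, depending on the library. All intervals below are exact 95% intervals from the counts of 2 libraries or 2 genes and cover counting error only, not the spread between cultures. Of 8 fibroblast markers, 8 reached 1 TPM in mES-Oct4GFP- cells, 7 in 5C-Oct4GFP-, 3 in each kind of Oct4GFP+ cells, 4 in 5C-Oct4GFP+ (naive), and 8 in both primed libraries. Their summed level was 2869 and 2663 TPM in mES- and 5C-Oct4GFP- cells, 343 and 348 TPM in the Oct4GFP+ cells, 641 TPM in naive, 549.8 TPM in primed and 1007 TPM in R1 ESCs-primed, most of it *Vim*, the mesenchymal intermediate filament. The pluripotency factor *Nanog* had 17.1 and 119.5 TPM in the Oct4GFP- cells and between 118 and 735 TPM in the other 5 libraries. *Pou5f1*, which encodes Oct4 and was also delivered by retrovirus, had 3640.4 and 1534 TPM in Oct4GFP- cells of mES and 5C medium, 1321 and 2429 TPM with the reporter on, and 1503 to 1698 TPM in the other 3. *Sall4*, another pluripotency factor, had 34.7 and 34.8 TPM in the Oct4GFP- cells and 120.5 to 171 TPM in the other 5 libraries. Other members of the same list of 8 pluripotency markers did not divide the libraries in this way. *Zfp42*, *Esrrb* and *Dppa5a* had 0, 1 and 0.87 TPM in 5C-Oct4GFP+ (primed) and 14.1, 15.3 and 110 TPM in 5C-Oct4GFP- cells. *Fgf5* had 0.12 TPM in mES-Oct4GFP+ and 19 TPM in mES-Oct4GFP- cells.

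The summed level of the 44 chains in the Oct4GFP- cells was 1759 TPM in mES medium and 1066 TPM in 5C medium. In the Oct4GFP+ cells it was 86.8 TPM in mES and 252 TPM in 5C medium. The naive conversion gave 71.7 TPM, the primed conversion 293 TPM, and R1 ESCs-primed 652 TPM. Collagen RNA was thus highest in the fractions that had not switched on the reporter, lowest in mES-Oct4GFP+ and naive cells, and between these in 5C-Oct4GFP+ cells and both primed libraries. As a share of all expected counts, the chains held 0.457% (exact 95% interval 0.453 to 0.462) in mES-Oct4GFP- cells and 0.0201% (0.0192 to 0.0211) in 5C-Oct4GFP+ (naive) cells. The number of chains with at least 1 TPM was 33 and 37 in the Oct4GFP- cells of mES and 5C medium, 18 and 21 in their Oct4GFP+ cells, 13 in naive, 22 in primed and 32 in R1 ESCs-primed cells. Over all 29267 genes it was 14787 and 14922 in the Oct4GFP- cells and 13992 and 13813 in the Oct4GFP+ cells. It was 13351 in naive, 13629 in primed and 14082 in R1 ESCs-primed cells. Of the 44 chains, 21 had their highest level in mES-Oct4GFP- cells, 12 in 5C-Oct4GFP-, 6 in R1 ESCs-primed, 3 in mES-Oct4GFP+ and 1, *Col18a1*, in 5C-Oct4GFP+, with *Col19a1* at 0 in all. The library of the highest level was not counted over all genes, so these counts describe the chains only.

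**Figure D1:**
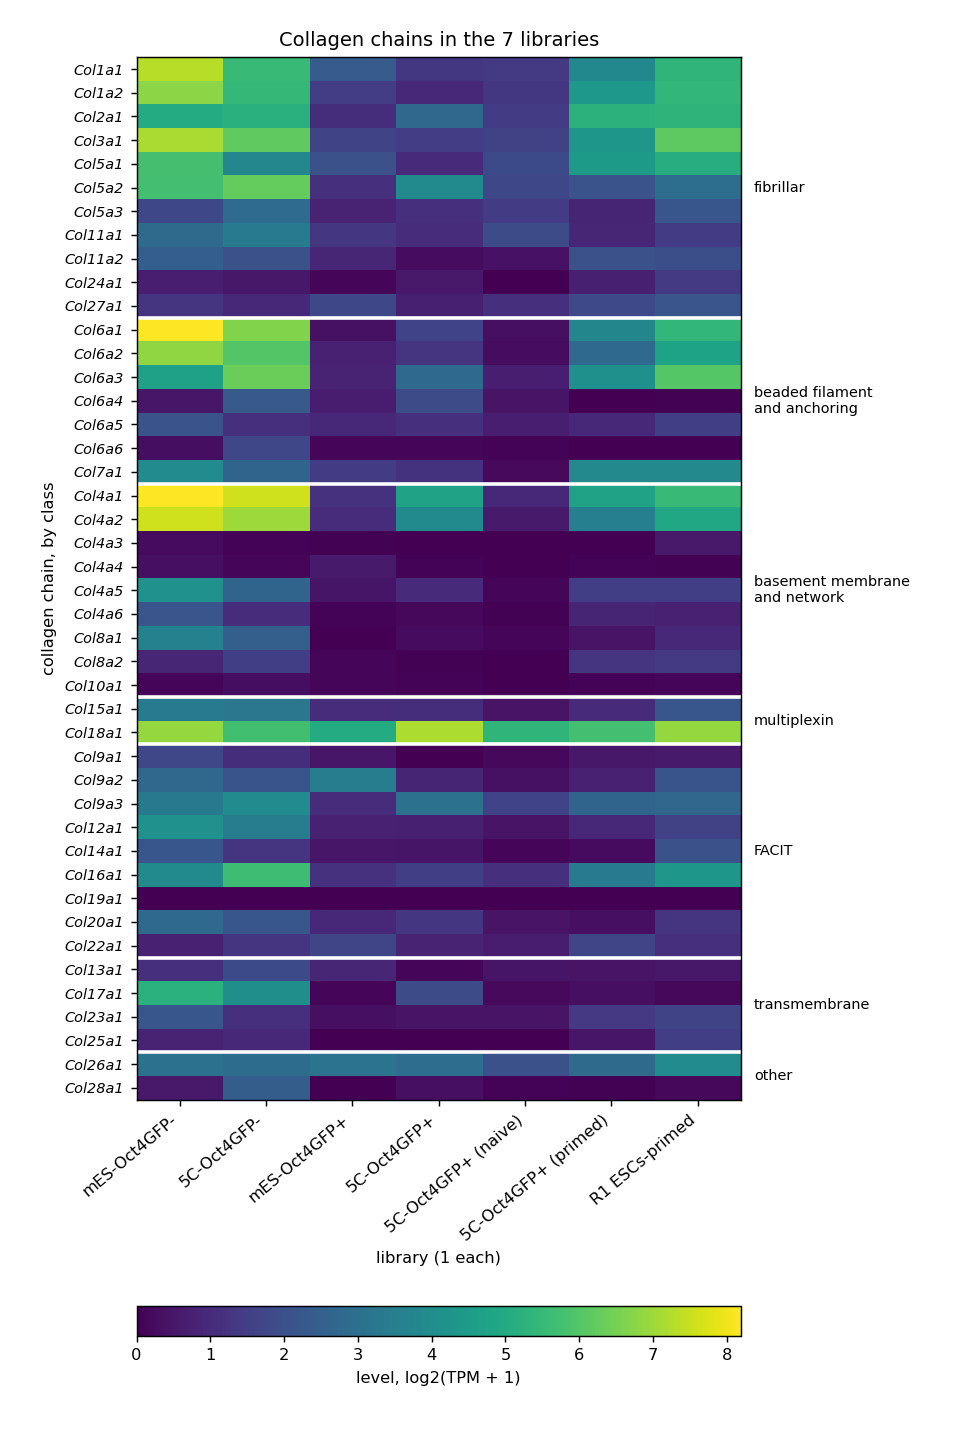
Level of each of the 44 collagen chains (rows, grouped by class) in the 7 libraries (columns), as log2(TPM + 1) by colour. The abundant fibrillar, type VI and type IV chains are bright in the Oct4GFP- columns and dark in mES-Oct4GFP+ and naive, while Col18a1 is bright in every column.

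The makeup by class also differed between libraries. Fibrillar chains held 31.9% and 28.6% of collagen TPM in the Oct4GFP- cells of mES and 5C medium, 21.9% and 11.2% in the Oct4GFP+ cells, 24.9% in naive, 41.6% in primed and 37.7% in R1 ESCs-primed. The multiplexins, nearly all of it *Col18a1*, held 57.6% in 5C-Oct4GFP+, 57.0% in naive and 38.3% in mES-Oct4GFP+ cells, against 7.27% and 5.68% in the Oct4GFP- cells of mES and 5C medium. Basement membrane and network chains held 29.3% and 30.9% in mES- and 5C-Oct4GFP- cells, 16.2% in 5C-Oct4GFP+, 3.96% in mES-Oct4GFP+ and 2.26% in naive cells.

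**Figure D2:**
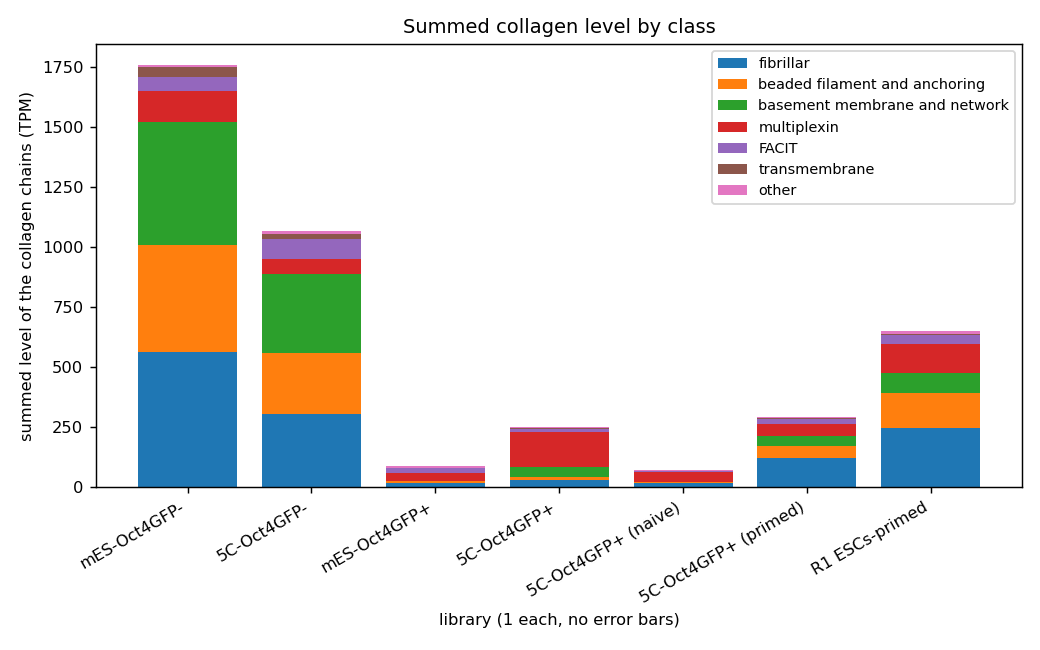
Summed TPM of the 44 collagen chains in each of the 7 libraries (1 bar each, no replicates), stacked by collagen class from 0. The bars run from 71.7 TPM in 5C-Oct4GFP+ (naive) to 1759 TPM in mES-Oct4GFP- cells, and multiplexins are the largest part in both Oct4GFP+ bars and in naive cells.

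Type I collagen, the main protein of connective tissue fibrils, is made of 2 *Col1a1* chains and 1 *Col1a2* chain. *Col1a1* (ENSMUSG00000001506, chromosome 11, 94936224 to 94953042, plus strand, GRCm38) in mES medium had 159.6 TPM in the Oct4GFP- and 4.05 TPM in the Oct4GFP+ fraction, and in 5C medium 45 and 1.5 TPM. After conversion, *Col1a1* had 1.63 TPM in naive and 13.3 TPM in primed medium, with 40.5 TPM in R1 ESCs-primed. It was highest in mES-Oct4GFP- and under 5 TPM in both Oct4GFP+ libraries and in naive cells. *Col1a2* (ENSMUSG00000029661, chromosome 6, 4504814 to 4541544, plus strand) in mES medium had 108 TPM in the Oct4GFP- and 1.82 TPM in the Oct4GFP+ fraction, and in 5C medium 43.4 and 0.9 TPM. For *Col1a2*, the level was 1.53 TPM in 5C-Oct4GFP+ (naive), 19.9 TPM in 5C-Oct4GFP+ (primed) and 41.8 TPM in R1 ESCs-primed. *Col1a2* followed the same order at the top, and both chains lay between these extremes in the primed libraries. Type III, encoded by *Col3a1*, forms fine fibrils together with type I. *Col3a1* in mES medium had 140.4 TPM in the Oct4GFP- and 2.23 TPM in the Oct4GFP+ fraction, and in 5C medium 71.7 and 1.78 TPM. In naive medium *Col3a1* stood at 2 TPM, in primed medium at 19.3 TPM and in R1 ESCs-primed at 71.3 TPM. *Col3a1* was as high in R1 ESCs-primed as in 5C-Oct4GFP- cells, and lower after primed conversion.

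Type V collagen nucleates fibrils, and its chains *Col5a1* and *Col5a2* had different patterns. *Col5a1* in mES medium had 54 TPM in the Oct4GFP- and 3.06 TPM in the Oct4GFP+ fraction, and in 5C medium 13 and 0.97 TPM. After conversion, *Col5a1* had 2.59 TPM in naive and 21 TPM in primed medium, with 33.5 TPM in R1 ESCs-primed. *Col5a2* in mES medium had 52.1 TPM in the Oct4GFP- and 1.19 TPM in the Oct4GFP+ fraction, and in 5C medium 75.4 and 13.8 TPM. Without the reporter, *Col5a1* was higher in mES than in 5C medium, and *Col5a2* the reverse. For *Col5a2*, the level was 2.42 TPM in 5C-Oct4GFP+ (naive), 3.23 TPM in 5C-Oct4GFP+ (primed) and 6.76 TPM in R1 ESCs-primed. Among the 5 libraries other than the Oct4GFP- cells, *Col5a2* was highest in 5C-Oct4GFP+ cells, whereas *Col5a1* was highest in R1 ESCs-primed. *Col5a3* in mES medium had 2.44 TPM in the Oct4GFP- and 0.75 TPM in the Oct4GFP+ fraction, and in 5C medium 6.32 and 1.16 TPM. In naive medium *Col5a3* stood at 1.68 TPM, in primed medium at 0.81 TPM and in R1 ESCs-primed at 3.62 TPM. This last type V chain stayed low in every library.

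The cartilage collagen *Col2a1* had another pattern among the fibrillar chains. *Col2a1* in mES medium had 32 TPM in the Oct4GFP- and 1.1 TPM in the Oct4GFP+ fraction, and in 5C medium 36.2 and 5.8 TPM. After conversion, *Col2a1* had 1.75 TPM in naive and 37.4 TPM in primed medium, with 38.9 TPM in R1 ESCs-primed. Its level was alike in both Oct4GFP- and both primed libraries and low in the other 3. *Col11a1* in mES medium had 6.05 TPM in the Oct4GFP- and 1.46 TPM in the Oct4GFP+ fraction, and in 5C medium 9.66 and 1.04 TPM. *Col11a1*, a chain of the type XI collagen that accompanies type II in cartilage, was highest in 5C-Oct4GFP- cells. For *Col11a1*, the level was 2.68 TPM in 5C-Oct4GFP+ (naive), 0.84 TPM in 5C-Oct4GFP+ (primed) and 1.68 TPM in R1 ESCs-primed. Of 5 chondrocyte markers, 2 or 3 reached 1 TPM in the Oct4GFP-, naive and both primed libraries, 1 with the reporter on in 5C medium and 0 with it on in mES medium. *Sox9*, a regulator of cartilage genes, had 4.52 and 10.3 TPM in mES- and 5C-Oct4GFP- cells, 4.38 TPM in primed and 9.34 TPM in R1 ESCs-primed. *Sox9* had at most 0.34 TPM in the other 3 libraries. Other markers of the list had other patterns. *Matn1* had 0.47 and 0.36 TPM in mES- and 5C-Oct4GFP- cells, 2.09 TPM in 5C-Oct4GFP+ and 1.87 TPM in naive cells. *Sox5* had 3.12 and 7.72 TPM in mES- and 5C-Oct4GFP- cells but 0.72 TPM in primed cells. *Comp* had 0.29 TPM in mES-Oct4GFP- and 1.26 TPM in naive cells. The summed level of the list had its lowest value, 2.49 TPM, in mES-Oct4GFP+ and its highest, 20.4 TPM, in 5C-Oct4GFP- cells. *Acan*, which encodes the main cartilage proteoglycan, was under 1 TPM in all 7. Their part in the *Col2a1* pattern was not tested.

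The type VI filament is assembled from *Col6a1*, *Col6a2* and 1 larger chain, usually *Col6a3*. *Col6a1* (ENSMUSG00000001119, chromosome 10, 76708792 to 76726168, minus strand) in mES medium had 292 TPM in the Oct4GFP- and 0.3 TPM in the Oct4GFP+ fraction, and in 5C medium 98.7 and 2.13 TPM. After conversion, *Col6a1* had 0.26 TPM in naive and 12.5 TPM in primed medium, with 41.9 TPM in R1 ESCs-primed. *Col6a1* was the highest of all chains in mES-Oct4GFP- cells, with *Col4a1* next at 289 TPM, and nearly absent from mES-Oct4GFP+ and naive cells, with 4 and 5 counts. *Col6a2* in mES medium had 112 TPM in the Oct4GFP- and 0.7 TPM in the Oct4GFP+ fraction, and in 5C medium 62.6 and 1.36 TPM. For *Col6a2*, the level was 0.22 TPM in 5C-Oct4GFP+ (naive), 6 TPM in 5C-Oct4GFP+ (primed) and 26 TPM in R1 ESCs-primed. The order of the libraries was the same for *Col6a2* at the top. *Col6a3* in mES medium had 24.9 TPM in the Oct4GFP- and 0.73 TPM in the Oct4GFP+ fraction, and in 5C medium 81.4 and 5.93 TPM. In naive medium *Col6a3* stood at 0.62 TPM, in primed medium at 16.1 TPM and in R1 ESCs-primed at 65 TPM. Unlike its partners, *Col6a3* in Oct4GFP- cells was higher in 5C medium. The anchoring fibril collagen *Col7a1* ties basement membranes to the tissue below. *Col7a1* in mES medium had 14.4 TPM in the Oct4GFP- and 1.71 TPM in the Oct4GFP+ fraction, and in 5C medium 5.2 and 1.28 TPM. After conversion, *Col7a1* had 0.16 TPM in naive and 13.4 TPM in primed medium, with 13.5 TPM in R1 ESCs-primed. *Col7a1* had nearly the same level in mES-Oct4GFP- and in both primed libraries.

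Type IV is the scaffold of basement membranes, and most of it is built from 2 *Col4a1* chains and 1 *Col4a2* chain. The genes lie head to head on chromosome 8 of GRCm38, *Col4a1* on the minus and *Col4a2* on the plus strand, and their annotated 5′ ends overlap by 22 bases. The RefSeq promoter windows (GRCm38.p6, 250 bases before to 50 after the start, 5′ to 3′ on the strand of the gene) of the pair share 78 bases and are shown because both genes start within the same short region. Capitals mark GGGCGG and CCAAT in either orientation.
Col4a1, chr8:11312777-11313076, minus strand: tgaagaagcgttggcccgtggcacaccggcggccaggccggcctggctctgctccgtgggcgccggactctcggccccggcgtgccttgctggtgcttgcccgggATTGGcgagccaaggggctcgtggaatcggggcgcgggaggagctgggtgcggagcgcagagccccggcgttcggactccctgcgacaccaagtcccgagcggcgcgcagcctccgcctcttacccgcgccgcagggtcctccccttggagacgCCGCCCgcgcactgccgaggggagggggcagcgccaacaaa
Col4a2, chr8:11312555-11312854, plus strand: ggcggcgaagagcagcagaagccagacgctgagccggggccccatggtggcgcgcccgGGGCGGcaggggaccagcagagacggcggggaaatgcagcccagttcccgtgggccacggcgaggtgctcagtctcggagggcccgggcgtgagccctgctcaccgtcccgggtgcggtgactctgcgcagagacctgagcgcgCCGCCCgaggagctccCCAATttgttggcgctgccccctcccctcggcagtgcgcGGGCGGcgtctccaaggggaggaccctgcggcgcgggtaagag

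*Col4a1* (ENSMUSG00000031502) in mES medium had 289 TPM in the Oct4GFP- and 1.24 TPM in the Oct4GFP+ fraction, and in 5C medium 191 and 25.6 TPM. After conversion, *Col4a1* had 0.94 TPM in naive and 25.3 TPM in primed medium, with 45.9 TPM in R1 ESCs-primed. *Col4a2* in mES medium had 193 TPM in the Oct4GFP- and 1.04 TPM in the Oct4GFP+ fraction, and in 5C medium 125 and 13.7 TPM. Both chains were highest in the Oct4GFP- cells and nearly silent in mES-Oct4GFP+ and naive cells, while 5C-Oct4GFP+ cells kept an intermediate level. For *Col4a2*, the level was 0.5 TPM in 5C-Oct4GFP+ (naive), 10.6 TPM in 5C-Oct4GFP+ (primed) and 28.2 TPM in R1 ESCs-primed. The strand of the libraries is not stated in the sources, and only reads lying wholly within the 22 overlapping bases could come from either gene. *Col4a5* in mES medium had 16.6 TPM in the Oct4GFP- and 0.39 TPM in the Oct4GFP+ fraction, and in 5C medium 5.25 and 0.96 TPM. *Col4a5*, a chain of specialised basement membranes, was also highest in mES-Oct4GFP- cells. In naive medium *Col4a5* stood at 0.07 TPM, in primed medium at 1.9 TPM and in R1 ESCs-primed at 1.89 TPM. *Col8a1* in mES medium had 11.1 TPM in the Oct4GFP- and 0 TPM in the Oct4GFP+ fraction, and in 5C medium 4.56 and 0.17 TPM. This network-forming chain of the endothelial matrix, *Col8a1*, had 0 counts in mES-Oct4GFP+ cells. After conversion, *Col8a1* had 0.08 TPM in naive and 0.35 TPM in primed medium, with 0.93 TPM in R1 ESCs-primed.

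*Col18a1* encodes the multiplexin whose C-terminal fragment is endostatin, and of the 25 abundant chains it had the highest minimum over the 7 libraries, 32.2 TPM. *Col18a1* (ENSMUSG00000001435, chromosome 10, 77052178 to 77166548, minus strand) in mES medium had 118 TPM in the Oct4GFP- and 32.2 TPM in the Oct4GFP+ fraction, and in 5C medium 52 and 144 TPM. In naive medium *Col18a1* stood at 40.5 TPM, in primed medium at 52.8 TPM and in R1 ESCs-primed at 119 TPM. It was the highest of all chains in both Oct4GFP+ libraries, after both conversions and in R1 ESCs-primed. RefSeq lists 2 starts for it, whose windows are shown with the same marks because *Col18a1* departed from the other chains.
Col18a1, upstream start, chr10:77166481-77166780, minus strand: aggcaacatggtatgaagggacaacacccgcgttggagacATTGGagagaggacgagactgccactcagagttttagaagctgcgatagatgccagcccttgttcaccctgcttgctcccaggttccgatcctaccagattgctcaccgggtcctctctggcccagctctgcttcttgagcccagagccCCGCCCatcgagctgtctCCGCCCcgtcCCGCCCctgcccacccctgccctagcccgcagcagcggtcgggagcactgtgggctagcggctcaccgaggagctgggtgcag
Col18a1, downstream start, chr10:77113656-77113955, minus strand: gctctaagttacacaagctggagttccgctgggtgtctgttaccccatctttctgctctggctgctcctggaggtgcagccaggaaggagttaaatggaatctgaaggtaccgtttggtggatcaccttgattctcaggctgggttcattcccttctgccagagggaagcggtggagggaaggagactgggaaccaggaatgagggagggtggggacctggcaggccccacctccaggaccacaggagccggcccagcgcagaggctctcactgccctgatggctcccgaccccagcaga
The upstream window holds GGGCGG 3 times and CCAAT 1 time, and the downstream window holds neither. The deposited gene levels add up all transcripts and do not tell the starts apart. The other multiplexin, *Col15a1*, was highest in the Oct4GFP- cells. *Col15a1* in mES medium had 9.45 TPM in the Oct4GFP- and 1.05 TPM in the Oct4GFP+ fraction, and in 5C medium 8.58 and 1.1 TPM. After conversion, *Col15a1* had 0.34 TPM in naive and 0.97 TPM in primed medium, with 3.55 TPM in R1 ESCs-primed. Its levels in mES-Oct4GFP+, 5C-Oct4GFP+ and naive cells rest on 5, 4 and 1 counts and lie near the floor. At the lengths that RSEM set there, 3 counts on it were worth 0.627, 0.828 and 1.005 TPM.

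Of the 44 chains, 35 had a RefSeq promoter entry, with 38 windows in all. Each motif was searched on both strands. GGGCGG, the GC box, was present in 23 of the 38 windows (60.5%) and in 35.7% of all 32851 RefSeq windows of that length. CCAAT was in 13 windows (34.2%, against 37.4% of all) and TATAAA in 5 (13.2%, against 13.6%). Such a match describes the letters and does not show that a factor binds there.

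FACIT collagens bridge fibrils and other matrix parts. *Col16a1* in mES medium had 14.3 TPM in the Oct4GFP- and 1.25 TPM in the Oct4GFP+ fraction, and in 5C medium 48.8 and 1.9 TPM. After conversion, *Col16a1* had 1.18 TPM in naive and 9.06 TPM in primed medium, with 19.4 TPM in R1 ESCs-primed. By TPM, *Col16a1* was the 1 chain of this class at least 2-fold higher in Oct4GFP- cells in 5C than in mES medium. With counts scaled to the library total, *Col9a3* also passed 2-fold there, at a log2 difference of 1.43. *Col12a1* in mES medium had 16.9 TPM in the Oct4GFP- and 0.68 TPM in the Oct4GFP+ fraction, and in 5C medium 10.1 and 0.63 TPM. For *Col12a1*, the level was 0.36 TPM in 5C-Oct4GFP+ (naive), 0.93 TPM in 5C-Oct4GFP+ (primed) and 1.99 TPM in R1 ESCs-primed. *Col12a1*, which coats type I fibrils, was above 2 TPM in the Oct4GFP- cells only. *Col9a2* in mES medium had 5.72 TPM in the Oct4GFP- and 10.2 TPM in the Oct4GFP+ fraction, and in 5C medium 3.42 and 0.8 TPM. In naive medium *Col9a2* stood at 0.28 TPM, in primed medium at 0.67 TPM and in R1 ESCs-primed at 3.37 TPM. The type IX chain *Col9a2*, of cartilage fibrils, had its highest level in mES-Oct4GFP+ cells. *Col9a3* in mES medium had 8.85 TPM in the Oct4GFP- and 1.06 TPM in the Oct4GFP+ fraction, and in 5C medium 14.6 and 7.34 TPM. After conversion, *Col9a3* had 2.11 TPM in naive and 5.22 TPM in primed medium, with 5.51 TPM in R1 ESCs-primed. Its partner *Col9a3* was highest in 5C-Oct4GFP- cells. *Col20a1* in mES medium had 5.91 TPM in the Oct4GFP- and 0.93 TPM in the Oct4GFP+ fraction, and in 5C medium 3.59 and 1.48 TPM. For *Col20a1*, the level was 0.36 TPM in 5C-Oct4GFP+ (naive), 0.27 TPM in 5C-Oct4GFP+ (primed) and 1.36 TPM in R1 ESCs-primed. *Col20a1* was low throughout.

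The transmembrane chain *Col17a1* belongs to the hemidesmosomes that hold epithelial cells to their basement membrane. *Col17a1* in mES medium had 36.7 TPM in the Oct4GFP- and 0.11 TPM in the Oct4GFP+ fraction, and in 5C medium 16.1 and 2.77 TPM. After conversion, *Col17a1* had 0.16 TPM in naive and 0.26 TPM in primed medium, with 0.14 TPM in R1 ESCs-primed. It was detected above 1 TPM in the Oct4GFP- cells of both media and in 5C-Oct4GFP+ cells. The summed level of 5 keratinocyte markers was 228 and 229.6 TPM in the Oct4GFP- cells of mES and 5C medium and 0.44 and 125 TPM in the Oct4GFP+ cells, with 0.51 to 2.89 TPM in the other 3 libraries. Of these, *Krt17* in Oct4GFP+ cells had 121 TPM in 5C and 0 TPM in mES medium, while *Krt14*, the keratin of basal epidermis, had 2.82 and 0 TPM. *Krt14* was also at 0 TPM in the naive and both primed libraries. Of the list, 3 and 4 markers reached 1 TPM in the Oct4GFP- cells of mES and 5C medium, 2 among 5C-Oct4GFP+ cells, and 0 in naive and mES-Oct4GFP+ cells. Their part in the level of *Col17a1* was not tested. *Col26a1* in mES medium had 7.36 TPM in the Oct4GFP- and 7.68 TPM in the Oct4GFP+ fraction, and in 5C medium 6.44 and 6.58 TPM. For *Col26a1*, the level was 3.13 TPM in 5C-Oct4GFP+ (naive), 6.1 TPM in 5C-Oct4GFP+ (primed) and 14.6 TPM in R1 ESCs-primed. *Col26a1*, an unclassified chain known from testis and ovary, was within 2-fold in both sorts.

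The 19 other chains were the fibrillar *Col11a2*, *Col24a1* and *Col27a1*, the type IV chains *Col4a3*, *Col4a4* and *Col4a6*, *Col6a4*, *Col6a5*, *Col6a6*, *Col8a2*, *Col9a1*, *Col10a1*, *Col13a1*, *Col14a1*, *Col19a1*, *Col22a1*, *Col23a1*, *Col25a1* and *Col28a1*. The hypertrophic cartilage chain *Col10a1* had at most 0.23 TPM, and *Col4a3* and *Col4a4*, the glomerular basement membrane pair, at most 0.47 and 0.51 TPM. In 5C medium *Col6a4* had 3.88 TPM without and 2.67 TPM with the reporter, and it had at most 0.57 TPM in the other 5 libraries. *Col28a1*, known from the Schwann cell basement membrane, had 4.34 TPM in 5C-Oct4GFP- cells and at most 0.49 TPM elsewhere. The summed level of 4 markers of Schwann cells and neural crest was 32.3 TPM in 5C-Oct4GFP- and 4.72 to 22.6 TPM in the other libraries, and their part was not tested.

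Whether cells that switched on Oct4GFP had lost fibroblast collagens was asked first in mES medium. A chain or gene was called higher or lower at 2-fold or more on log2(TPM + 1), if it had at least 1 TPM in either library. Of the 34 chains with that level, 28 (82.4%) were lower with the reporter on, beside 28.8% of all 16294 genes, and 0 were higher, beside 17.9% of all genes. The median log2 difference was -2.43 for these chains and -0.15 for all genes. The minimum admits a chain through the library in which it is high, so the counts describe these 2 libraries. *Col4a1* was 233-fold lower (exact 95% interval 160.1 to 354), *Col1a1* 39.4-fold lower (exact 95% interval 31.5 to 49.9) and *Col3a1* 62.8-fold lower (exact 95% interval 43.9 to 93.4). With 4 counts left in mES-Oct4GFP+ cells, *Col6a1* was 977-fold lower (exact 95% interval 381 to 3588). *Col8a1* had 0 counts there and was at least 62.1-fold lower (exact 95% lower limit 50.2), taking 3 counts per library as the floor. Fibroblast markers were lower in the same library, *Prrx1* with 0.24 against 87.9 TPM and *Vim* with 335 against 2209 TPM. The summed list of primitive and parietal endoderm had 5.59 against 71.5 TPM, with *Gata4* at 0.8 against 33 TPM, and the keratinocyte list 0.44 against 228 TPM. Their part in the collagen difference was not tested. The 6 chains within 2-fold were *Col5a3*, *Col27a1*, *Col9a2*, *Col22a1*, *Col13a1* and *Col26a1*.

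In 5C medium, 27 of 37 chains (73.0%) were lower with the reporter on, beside 22.6% of all 15675 genes, and 1 was higher, beside 8.45%. These chains had a median log2 difference of -1.76, and all genes -0.25. *Col3a1* was 40.3-fold lower (exact 95% interval 29.5 to 56.4), *Col1a1* 30.1-fold lower (exact 95% interval 22.6 to 40.8) and *Col6a1* 46.3-fold lower (exact 95% interval 34.9 to 62.9). Smaller differences were those of *Col4a1*, 7.45-fold lower (exact 95% interval 6.95 to 7.99), and *Col5a2*, 5.47-fold lower (exact 95% interval 4.97 to 6.04). *Col18a1* was the higher chain, 2.77-fold higher (exact 95% interval 2.59 to 2.96). *Col9a1*, of cartilage type IX, had 0 counts in 5C-Oct4GFP+ cells and was at least 4.35-fold lower (exact 95% lower limit 3.08). In the same pair of libraries *Prrx1* had 0.44 against 18.4 TPM and *Vim* 333 against 2468 TPM, while the endoderm list had 2.26 against 13.9 TPM and the keratinocyte list 125 against 229.6 TPM, and their part was not tested. Median-ratio rescaling of the libraries brought the median of all genes to -0.0026 in the mES sort and to -0.04 in the 5C sort, and relative to those medians the counts of lower chains stayed within 1.5 times of those above.

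Across both sorts, 21 of the 33 chains measured in both were lower in Oct4GFP+ cells in both media, beside 15.2% of all genes measured in both, among them all of *Col1a1*, *Col1a2*, *Col2a1*, *Col3a1*, *Col4a1*, *Col4a2*, *Col5a1*, *Col5a2*, *Col6a1*, *Col6a2* and *Col6a3*. *Col18a1* was the 1 chain lower in 1 medium and higher in the other, 3.68-fold lower (exact 95% interval 3.35 to 4.04) in mES medium. *Col22a1* and *Col26a1* were within 2-fold in both. *Col22a1* lay just under that limit in mES medium, at a log2 difference of 0.99, and passed it as higher with median-ratio rescaling (1.05) and with counts scaled to the library total (1.05).

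The difference between the media in Oct4GFP- cells was smaller and went both ways. Of 38 chains, 11 were lower in 5C medium, beside 10.1% of all 15859 genes, and 6 were higher, beside 9.68%. Their median log2 difference was -0.60, with 0.03 over all genes. Among the lower chains, *Col5a1* was 4.16-fold lower (exact 95% interval 3.73 to 4.64), *Col1a1* 3.55-fold lower (exact 95% interval 3.32 to 3.79) and *Col6a1* 2.95-fold lower (exact 95% interval 2.79 to 3.12). *Col1a2* was 2.5-fold lower (exact 95% interval 2.32 to 2.69) and *Col18a1* 2.28-fold lower (exact 95% interval 2.12 to 2.45). The higher chains were *Col16a1*, 3.42-fold higher (exact 95% interval 2.84 to 4.14), *Col6a3*, 3.27-fold higher (exact 95% interval 2.97 to 3.6), *Col5a3*, 2.59-fold higher (exact 95% interval 1.93 to 3.52), and the low *Col6a4*, *Col6a6* and *Col28a1*. *Col5a3* came within 2-fold on the FPKM scale, and with a minimum of 5 TPM the last 3 were not counted. Partners of the same fibril or filament thus lay on opposite sides, *Col5a1* with a ratio of 0.241 (exact 95% interval 0.216 to 0.268) and *Col5a2* with 1.45 (exact 95% interval 1.35 to 1.55). *Col4a1* and *Col4a2* were within 2-fold, with ratios of 0.661 (exact 95% interval 0.638 to 0.684) and 0.648 (exact 95% interval 0.62 to 0.676). The fibroblast markers differed in both directions, *Prrx1* with 18.4 against 87.9 TPM, *S100a4* with 115 against 536 TPM and *Thy1* with 53.3 against 8.73 TPM. The endoderm list had 13.9 TPM in 5C and 71.5 TPM in mES medium, and a list of 5 endothelial markers 9.01 and 34.5 TPM. The part of these lists was not tested.

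**Figure D3:**
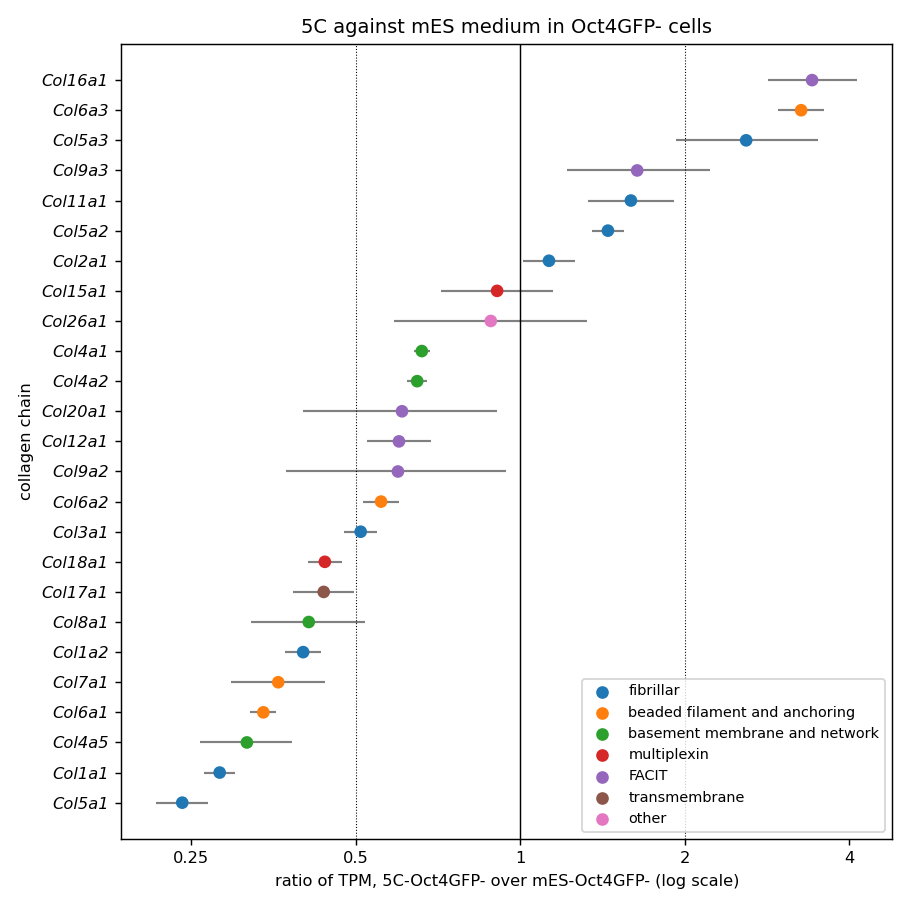
Ratio of TPM in 5C-Oct4GFP- over mES-Oct4GFP- cells (log axis) for the 25 chains with at least 5 TPM in any library, with points coloured by class and bars for the exact 95% counting interval. The dotted lines mark 2-fold. Col5a1 is lowest at 0.24 and Col16a1 highest at 3.42, and the fibrillar and type VI chains lie on both sides of 1.

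Between the Oct4GFP+ cells, 10 of 26 chains were higher in 5C medium, beside 13.7% of all 15196 genes, and 4 were lower, beside 13.5%. The median log2 difference was 0.33 over the chains and -0.06 over all genes. *Col4a1* was 20.7-fold higher (exact 95% interval 14.1 to 31.5), *Col4a2* 13.2-fold higher (exact 95% interval 8.64 to 21.3) and *Col5a2* 11.6-fold higher (exact 95% interval 7.8 to 17.9). *Col18a1*, the highest chain in both, was 4.47-fold higher (exact 95% interval 4.08 to 4.9), and *Col6a3* 8.15-fold higher (exact 95% interval 3.89 to 20.5). The hemidesmosome chain *Col17a1*, from 2 counts in mES-Oct4GFP+ cells, was 24.9-fold higher (exact 95% interval 6.61 to 211). *Col9a2* was 12.8-fold lower (exact 95% interval 7.06 to 25), and *Col1a1*, *Col5a1* and *Col27a1* were the other lower chains. All of these other 3 came within 2-fold on the FPKM scale and were not counted with a minimum of 5 TPM. *Col1a1* was 2.71-fold lower (exact 95% interval 1.88 to 3.94), and it also came within 2-fold, at a log2 difference of -0.99, with median-ratio rescaling. The libraries compared here also enter the comparisons with the Oct4GFP- cells, so these counts are not independent of those. The summed fibroblast markers were 348 TPM in 5C and 343 TPM in mES medium, of which *Vim* alone had 333 and 335 TPM. Other members differed in both directions, *Thy1* with 5.16 against 0.72 TPM, *S100a4* with 8.4 against 0.71 TPM and *Pdgfrb* with 0.13 against 4.11 TPM. The keratinocyte list had 125 and 0.44 TPM, and the part of both lists was not tested.

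When 5C-Oct4GFP+ cells were moved to naive medium, 10 of 24 chains were lower, beside 17.5% of all 14863 genes, and 0 were higher, beside 10%. The median log2 difference was -0.91 over the chains and -0.10 over all genes, which median-ratio rescaling brought to 0.01. *Col4a1* was 27.3-fold lower (exact 95% interval 18.9 to 41), *Col4a2* 27.5-fold lower (exact 95% interval 16.5 to 49.6), *Col5a2* 5.69-fold lower (exact 95% interval 4.46 to 7.35) and *Col18a1* 3.55-fold lower (exact 95% interval 3.31 to 3.82). *Col2a1*, *Col6a1*, *Col6a3*, *Col6a4*, *Col9a3* and *Col17a1* were the other lower chains, and *Col6a1* came within 2-fold on the FPKM scale. Fibrillar *Col1a1* and *Col3a1* were already low and had ratios of 1.09 (exact 95% interval 0.711 to 1.66) and 1.12 (exact 95% interval 0.624 to 1.96). *Col5a1* and *Col11a1* in naive cells had ratios of 2.68 (exact 95% interval 1.87 to 3.88) and 2.58 (exact 95% interval 1.79 to 3.76). They were within 2-fold on log2(TPM + 1), but passed it on the higher side with counts scaled to the library total, at 1.31 and 1.25, and with a pseudocount of 0.1. *Col4a1* and *Col18a1* in naive cells, at 0.94 and 40.5 TPM, stood beside 1.24 and 32.2 TPM in mES-Oct4GFP+ cells. The keratinocyte list had 0.51 TPM in naive and 125 TPM in 5C-Oct4GFP+ cells and the fibroblast list 641 and 348 TPM, of which *Vim* alone had 637 and 333 TPM. *S100a4* (0 against 8.4 TPM) and *Thy1* (1.15 against 5.16 TPM) were lower in naive cells. *Pdgfrb* (1.11 against 0.13 TPM) and *Snai2* (1.19 against 0.27 TPM) were higher. The part of both lists was not tested.

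In primed medium, 13 of 29 chains were higher than in 5C-Oct4GFP+ cells, beside 13.7% of all 15067 genes, and 4 were lower, beside 16.1%. The median log2 difference was 0.93, with 0.06 over all genes. The higher chains included 7 fibrillar ones. *Col1a2* was 22.1-fold higher (exact 95% interval 15.1 to 33.9), *Col5a1* 21.7-fold higher (exact 95% interval 16.2 to 29.9) and *Col3a1* 10.8-fold higher (exact 95% interval 7.84 to 15.4). *Col7a1* was 10.5-fold higher (exact 95% interval 7.22 to 15.8) and *Col2a1* 6.43-fold higher (exact 95% interval 5.44 to 7.65). All of *Col6a1*, *Col6a2* and *Col6a3* were higher, *Col6a1* by 5.85-fold (exact 95% interval 4.32 to 8.08), but *Col6a3* came within 2-fold, at a log2 difference of 0.90, with counts scaled to the library total. Against this direction, *Col5a2* was 4.27-fold lower (exact 95% interval 3.52 to 5.21), *Col18a1* 2.73-fold lower (exact 95% interval 2.58 to 2.89) and *Col17a1* 10.7-fold lower (exact 95% interval 5.26 to 24.5), with *Col6a4* also lower, and with a minimum of 5 TPM *Col17a1* and *Col6a4* were not counted. *Col4a1* had a ratio of 0.988 (exact 95% interval 0.904 to 1.08). Both conversions are set against the same 5C-Oct4GFP+ library and are not independent.

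Markers of other cells also differed in the primed library. The summed fibroblast list had 549.8 against 348 TPM, of which *Vim* alone had 524 and 333 TPM. Of its 8 genes, 8 against 3 reached 1 TPM. *Prrx1* had 2.95 against 0.44 TPM, while *S100a4* went the other way, with 6.74 against 8.4 TPM. The summed list of primitive and parietal endoderm had 177 against 2.26 TPM, with *Sox17* at 60.4 against 0.59 TPM, *Foxa2* at 82.9 against 0.25 TPM and *Gata6* at 28.8 against 0.56 TPM, while 4 against 0 of its 5 genes reached 1 TPM. *Gata4* had 4.19 against 0.37 TPM. The remaining gene of the list, *Sox7*, was not higher, with 0.35 against 0.49 TPM. The keratinocyte list was lower in the primed library, with 2.89 against 125 TPM and *Krt17* at 1.83 against 121 TPM, beside the lower *Col17a1*. Their part in the collagen differences was not tested.

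Set against R1 ESCs-primed, 15 of 32 chains were lower in 5C-Oct4GFP+ (primed) cells, beside 5.09% of all 14600 genes, and 0 were higher, beside 2.3%. The median log2 difference was -0.88 over the chains and -0.03 over all genes. *Col6a2* was 4.33-fold lower (exact 95% interval 3.59 to 5.26), *Col6a3* 4.03-fold lower (exact 95% interval 3.61 to 4.5), *Col3a1* 3.69-fold lower (exact 95% interval 3.28 to 4.16) and *Col1a1* 3.04-fold lower (exact 95% interval 2.72 to 3.4). Other chains had ratios near 1, *Col2a1* with a ratio of 0.96 (exact 95% interval 0.867 to 1.06) and *Col7a1* with 0.991 (exact 95% interval 0.854 to 1.15). The fibroblast list was lower as well, with *Prrx1* at 2.95 against 13.4 TPM, *Twist2* at 1.39 against 4.5 TPM and *Vim* at 524 against 953 TPM. The part of these markers was not tested. The endoderm list was about equal, with 177 and 167 TPM.

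**Figure D4:**
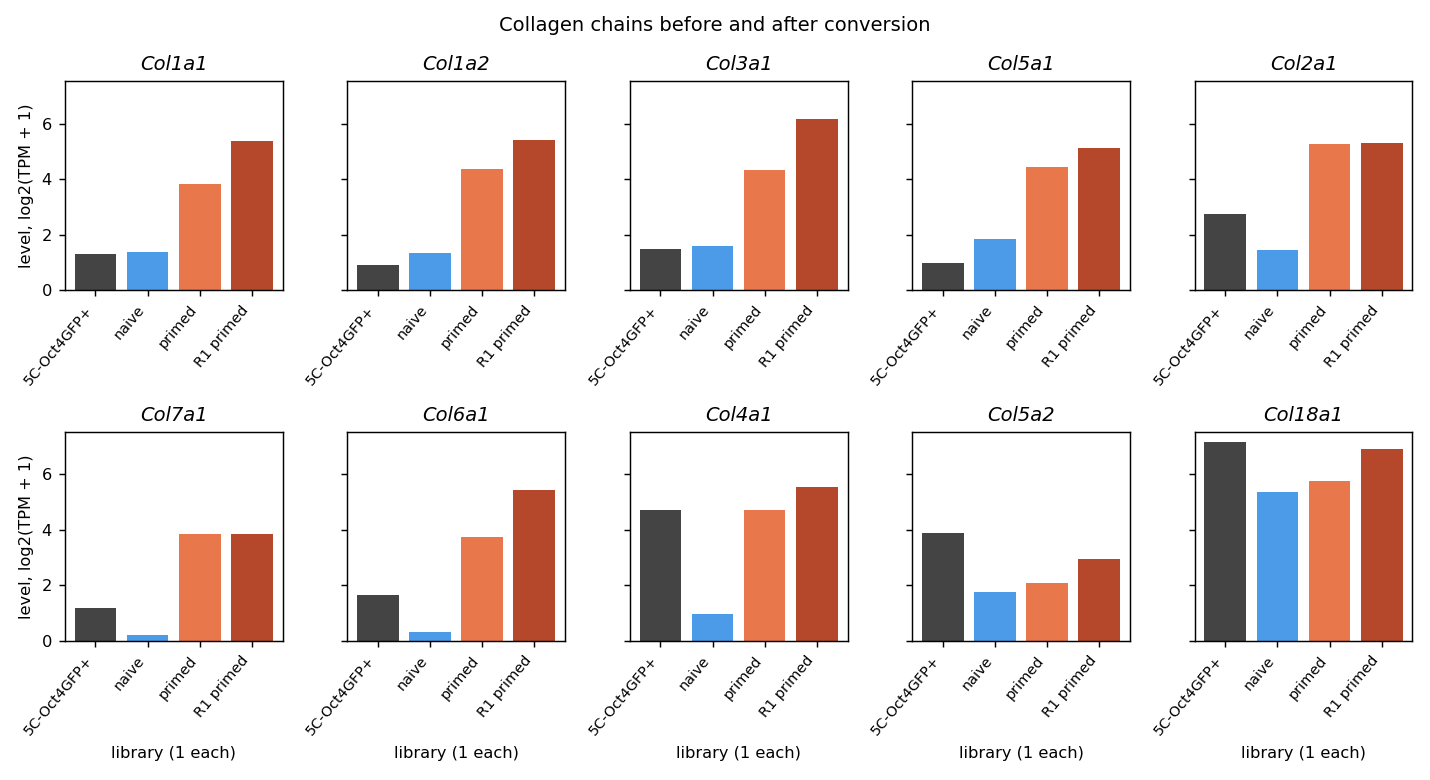
Level of 10 collagen chains as log2(TPM + 1) in 5C-Oct4GFP+ cells, the same cells converted in naive or primed medium, and R1 ESCs-primed (1 library each, bars from 0). Col1a1, Col1a2, Col3a1, Col5a1, Col2a1, Col7a1 and Col6a1 are higher in the primed bars than in 5C-Oct4GFP+, Col4a1 is level in primed and low in naive, and Col5a2 and Col18a1 are highest in 5C-Oct4GFP+.

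Chains that assemble together can be compared within a library, since TPM is per length. The ratio of *Col1a1* to *Col1a2* TPM was 1.47 (exact 95% interval 1.4 to 1.55) and 1.04 (exact 95% interval 0.95 to 1.13) in the Oct4GFP- cells of mES and 5C medium and 0.671 (exact 95% interval 0.595 to 0.757) in primed cells. The ratio of *Col4a1* to *Col4a2* was above 1 in every library, with intervals that include 1 in mES-Oct4GFP+ and naive cells, from 1.2 (exact 95% interval 0.656 to 2.2) in mES-Oct4GFP+ to 2.38 (exact 95% interval 2.12 to 2.67) in primed cells, and was 1.5 (exact 95% interval 1.45 to 1.55) in mES-Oct4GFP- and 1.53 (exact 95% interval 1.46 to 1.59) in 5C-Oct4GFP- cells. The intervals of these last ratios overlap.

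The type V ratio of *Col5a1* to *Col5a2* ranged widely over the 7 libraries. It was 1.04 (exact 95% interval 0.967 to 1.11) in mES-Oct4GFP- and 0.172 (exact 95% interval 0.155 to 0.192) in 5C-Oct4GFP- cells. In Oct4GFP+ cells of 5C medium it was 0.0702 (exact 95% interval 0.0507 to 0.095), and in mES-Oct4GFP+ cells 2.57 (exact 95% interval 1.64 to 4.16). It was 1.07 (exact 95% interval 0.786 to 1.46) after naive and 6.51 (exact 95% interval 5.43 to 7.87) after primed conversion, and 4.97 (exact 95% interval 4.2 to 5.9) in R1 ESCs-primed. The low ratio was common to both libraries of cells still in 5C medium and the high one to both primed libraries. The ratio of *Col5a3* to *Col5a2* stayed under 1 in all 7 libraries, from 0.0468 in mES-Oct4GFP- to 0.694 in naive cells.

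In type VI, *Col6a1* over *Col6a3* was 11.7 (exact 95% interval 10.7 to 12.8) in mES-Oct4GFP- and 1.21 (exact 95% interval 1.13 to 1.3) in 5C-Oct4GFP- cells, and 0.359 (exact 95% interval 0.258 to 0.492) in 5C-Oct4GFP+ cells. With the longest annotated transcript as the length of each chain, these became 22.7, 2.45 and 0.567, so the drop from mES to 5C medium kept nearly its size. In primed and R1 ESCs-primed cells the ratio was 0.773 (exact 95% interval 0.668 to 0.895) and 0.645 (exact 95% interval 0.586 to 0.71), and with that length it was above 1, at 1.74 and 1.30. *Col6a1* over *Col6a2* was 2.59 (exact 95% interval 2.46 to 2.73) in mES-Oct4GFP- and 1.58 (exact 95% interval 1.46 to 1.71) in 5C-Oct4GFP- cells. *Col9a2* over *Col9a3*, of type IX, was 9.64 (exact 95% interval 4.66 to 23.1) in mES-Oct4GFP+ cells and under 1 in the other 6 libraries. *Col11a1* over *Col11a2* was 3.14 (exact 95% interval 2.28 to 4.4) in 5C-Oct4GFP- cells and 0.273 (exact 95% interval 0.178 to 0.415) in primed cells, which became 5.61 and 0.535 with the longest annotated transcript. *Col8a1* over *Col8a2* was 13.1 (exact 95% interval 7.88 to 23.2) in mES-Oct4GFP- cells, and *Col4a5* over *Col4a6* 4.77 (exact 95% interval 3.83 to 5.98). *Col9a1* stayed under *Col9a3* in all libraries, and *Col4a3* and *Col4a4* had too few counts for a ratio.

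**Figure D5:**
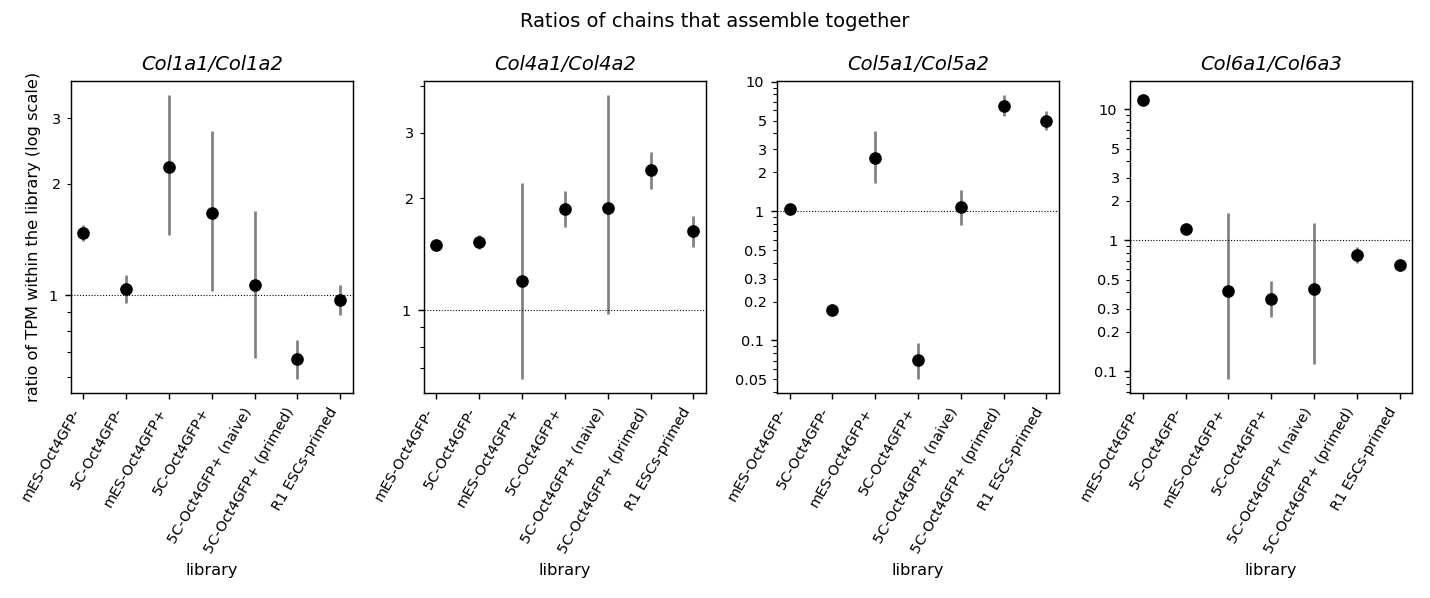
Ratio of TPM of 2 chains within each library, on log axes that differ between panels, for Col1a1/Col1a2, Col4a1/Col4a2, Col5a1/Col5a2 and Col6a1/Col6a3. Points are the ratio, bars the exact 95% counting interval, and the dotted line marks 1; Col5a1/Col5a2 is far below 1 in both sorted 5C libraries and above 1 in both primed libraries.

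The enzymes and chaperones that make collagen were followed as a list of 32 genes. Of the 32 measured, 26 were lower (28.8% of all genes) and 0 higher (17.9%) in mES-Oct4GFP+ against mES-Oct4GFP- cells, the largest differences being those of *Loxl4* (0.16 against 75.9 TPM), *Loxl2* (1.37 against 139 TPM), *P3h4* (3.74 against 227 TPM) and *Fkbp10* (2.37 against 131 TPM). *Loxl2* and *Loxl4* crosslink chains, and *P3h4* and *Fkbp10* act in lysyl hydroxylation. In 5C medium 16 of 31 were lower (22.6% of all genes) and 0 higher (8.45%), led by *Bmp1* (3.04 against 39 TPM), *Lox* (0.12 against 8.16 TPM), *P3h2* (0.76 against 9.59 TPM) and *P3h3* (9.2 against 58.4 TPM). *Bmp1* removes C-propeptides and *Lox* crosslinks, and *P3h2* and *P3h3* are prolyl 3-hydroxylase family members. *Serpinh1*, the collagen chaperone HSP47, had 584 and 541 TPM in mES- and 5C-Oct4GFP- cells and 112 and 126 TPM in the Oct4GFP+ cells, and was thus lower with the chains but not lost.

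Between the Oct4GFP- cells, 11 of 32 processing genes were lower in 5C medium (10.1% of all genes) and 1 higher (9.68%), led by *Loxl4* (5.37 against 75.9 TPM), *Loxl2* (14.6 against 139 TPM), *P4ha1* (51.5 against 264 TPM) and *P4ha2* (17.2 against 74.5 TPM). *P4ha1* and *P4ha2* encode catalytic subunits of prolyl 4-hydroxylase, which needs vitamin C. In 5C-Oct4GFP+ against mES-Oct4GFP+ cells, 10 of 27 were higher (13.7% of all genes) and 4 lower (13.5%), led by *Fkbp10* (24.7 against 2.37 TPM), *Loxl1* (5.79 against 0.09 TPM), *P3h4* (27.1 against 3.74 TPM) and *Loxl4* (5.02 against 0.16 TPM). Naive medium had 2 of 26 higher (10% of all genes) and 11 lower (17.5%) than 5C-Oct4GFP+ cells, led by *Fkbp10* (1.15 against 24.7 TPM), *P3h4* (2.01 against 27.1 TPM), *Loxl4* (0.06 against 5.02 TPM) and *Loxl1* (0.39 against 5.79 TPM). The genes named for the medium difference were thus also named for naive medium, and both comparisons use the 5C-Oct4GFP+ library. Primed medium had 9 of 29 higher (13.7% of all genes) and 5 lower (16.1%), led by *Pcolce* (11.9 against 122 TPM), *Tll1* (5.89 against 0.07 TPM), *Bmp1* (18 against 3.04 TPM) and *P3h2* (5.93 against 0.76 TPM). Against R1 ESCs-primed, 3 of 30 were lower (5.09% of all genes) and 0 higher (2.3%), *Loxl1* (3.36 against 11.2 TPM), *Pcolce* (11.9 against 33.6 TPM) and *Loxl4* (1.24 against 3.99 TPM).

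Of 10 collagen receptors, 7 had at least 1 TPM in either mES library, and 5 were lower (28.8% of all genes) and 0 higher (17.9%) in mES-Oct4GFP+ cells, led by *Ddr1* (3.5 against 108 TPM), *Mrc2* (0.49 against 25.6 TPM), *Itgb1* (66.6 against 494 TPM) and *Itga1* (0.1 against 1.96 TPM). *Ddr1* is a collagen receptor kinase, *Mrc2* an uptake receptor, and *Itga1* and *Itgb1* are the subunits of an integrin. In 5C medium 4 of 8 were lower (22.6%) and 0 higher (8.45%), *Mrc2* (1.61 against 13.9 TPM), *Ddr1* (25.2 against 67.5 TPM), *Ddr2* (20.1 against 48.1 TPM) and *Itga1* (1.16 against 4 TPM). Between the Oct4GFP- cells 0 of 9 passed 2-fold in either direction (10.1% lower and 9.68% higher over all genes). In 5C-Oct4GFP+ against mES-Oct4GFP+ cells 2 of 6 were higher (13.7%) and 1 lower (13.5%), *Ddr1* (25.2 against 3.5 TPM), *Ddr2* (20.1 against 54.9 TPM) and *Itgb1* (161 against 66.6 TPM). Naive medium had 1 of 6 higher (10%) and 4 lower (17.5%), led by *Ddr1* (2.75 against 25.2 TPM), *Itgb1* (45.6 against 161 TPM), *Ddr2* (46 against 20.1 TPM) and *Itga1* (0.04 against 1.16 TPM). Primed medium had 2 of 6 higher (13.7%) and 0 lower (16.1%), *Mrc2* (18.9 against 1.61 TPM) and *Ddr1* (82.2 against 25.2 TPM), and 0 of 7 passed 2-fold against R1 ESCs-primed (5.09% lower and 2.3% higher over all genes).

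Among 12 proteins that bind fibrils, 9 of 10 measured were lower (28.8% of all genes) and 0 higher (17.9%) in mES-Oct4GFP+ cells, led by *Prelp* (0.08 against 109 TPM), *Postn* (0.36 against 55.6 TPM), *Bgn* (1.88 against 63.8 TPM) and *Thbs2* (1.03 against 22.8 TPM). *Bgn* and *Prelp* are small leucine-rich proteoglycans, and *Postn* and *Thbs2* are matricellular proteins. In 5C medium again 9 of 10 were lower (22.6%) and 0 higher (8.45%), led by *Bgn* (1.92 against 133 TPM), *Prelp* (1.73 against 73.7 TPM), *Postn* (0.07 against 22.6 TPM) and *Fmod* (0.34 against 19.1 TPM). Between the Oct4GFP- cells 2 of 10 were higher (9.68%) and 1 lower (10.1%) in 5C medium, *Postn* (22.6 against 55.6 TPM), *Thbs2* (50.7 against 22.8 TPM) and *Bgn* (133 against 63.8 TPM). *Prelp* was the 1 of 5 higher in Oct4GFP+ cells of 5C medium (13.7%), with 1.73 against 0.08 TPM, and 0 were lower (13.5%). Naive medium had 1 of 6 higher (10%) and 2 lower (17.5%), *Lum* (6.98 against 0.09 TPM), *Prelp* (0.12 against 1.73 TPM) and *Thbs2* (0.76 against 2.76 TPM). Primed medium had 4 of 8 higher (13.7%) and 1 lower (16.1%), led by *Bgn* (55.4 against 1.92 TPM), *Dcn* (7.89 against 0.87 TPM), *Postn* (3.45 against 0.07 TPM) and *Lum* (2.7 against 0.09 TPM). Against R1 ESCs-primed 4 of 7 were lower (5.09%) and 0 higher (2.3%), *Postn* (3.45 against 14.4 TPM), *Dcn* (7.89 against 25.7 TPM), *Bgn* (55.4 against 140.2 TPM) and *Lum* (2.7 against 7.27 TPM).

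Of 17 partners of type IV in basement membranes, 11 were lower (28.8% of all genes) and 1 higher (17.9%) in mES-Oct4GFP+ cells, led by *Lama4* (0.81 against 153 TPM), *Pxdn* (1.74 against 102 TPM), *Frem1* (0 against 4.25 TPM) and *Smoc1* (20.5 against 3.18 TPM). *Lama4* is a laminin chain, *Pxdn* the peroxidase that crosslinks type IV, and *Smoc1* the 1 higher gene. In 5C medium 10 of 17 were lower (22.6%) and 1 higher (8.45%), led by *Lama4* (14.1 against 108 TPM), *Pxdn* (14.1 against 92.8 TPM), *Lama2* (0.12 against 5.4 TPM) and *Frem1* (0.08 against 4.62 TPM). Between the Oct4GFP- cells 1 was higher (9.68%) and 1 lower (10.1%), *Lama1* (64.6 against 20.2 TPM) and *Lama5* (162 against 444 TPM). In 5C-Oct4GFP+ against mES-Oct4GFP+ cells 4 of 13 were higher (13.7%) and 2 lower (13.5%), led by *Lama4* (14.1 against 0.81 TPM), *Smoc1* (2.29 against 20.5 TPM), *Pxdn* (14.1 against 1.74 TPM) and *Frem2* (35.3 against 11.2 TPM). *Pxdn* and *Lama4* were thus on the same side as *Col4a1* and *Col4a2*, but other partners were not. *Nid1* was lower, like *Smoc1*, with 40.2 against 97 TPM, and *Lamc1* was about level, with 257 against 246 TPM. Naive medium had 1 of 13 higher (10%) and 4 lower (17.5%), led by *Lama4* (0.59 against 14.1 TPM), *Pxdn* (0.65 against 14.1 TPM), *Smoc1* (16.8 against 2.29 TPM) and *Frem2* (6.98 against 35.3 TPM). Primed medium had 6 of 16 higher (13.7%) and 5 lower (16.1%), led by *Lama1* (1.09 against 26.4 TPM), *Lama4* (1 against 14.1 TPM), *Pxdn* (78.2 against 14.1 TPM) and *Smoc2* (4.32 against 0.06 TPM). Against R1 ESCs-primed 4 of 17 were lower (5.09%) and 0 higher (2.3%), *Lama4* (1 against 4.45 TPM), *Smoc1* (6.39 against 18.9 TPM), *Nid1* (12 against 29.4 TPM) and *Smoc2* (4.32 against 10.5 TPM).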

How the data were processed

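RNA was measured in 7 libraries, 1 for each group. The authors prepared TruSeq libraries and, per the labels and methods, aligned the reads to a synthetic transcriptome and quantified them with RSEM. The submitters' processing notes name Bowtie, RSEM and mm10, without versions here. The expected counts in the deposited tables estimate the reads of each Ensembl gene and are not normalized. The authors' TPM values are those counts divided by effective length and scaled to 1 sum per library, and their FPKM values, used as an alternative, are scaled to the mapped fragments. The deposited length and effective length per gene set the length of a chain.

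Protein-coding genes of GENCODE M21 were joined by Ensembl identifier, and the 44 collagen chains were taken by symbol. Differences on log2(TPM + 1) understate those of low genes. A gene was called at 2-fold if TPM was at least 1 in either library. Ratios of TPM have exact conditional Clopper-Pearson 95% intervals computed after rounding the expected counts. These intervals and the floor of 3 counts cover counting error only. With 1 library a group no test was run and no p-value is given. The members and lists were chosen with earlier results of these data known. Every chain is a member, those with at least 5 TPM in any library are given in all 7, and the other chains are given by range. From each pathway list the 4 measured genes with the largest absolute difference among those past 2-fold are named in each comparison. Marker lists of endothelial cells (2.74 to 99.8 TPM in sum), white blood cells (9.22 to 56.7), skeletal muscle (2.18 to 20.5) and osteoblasts (0.04 to 10.5) were also summed in each library. Of the 99.8 TPM, in mES-Oct4GFP+ cells, *Pecam1* had 96.9 TPM, a gene that the paper also uses as a naive marker. Of the 56.7 TPM, in mES-Oct4GFP- cells, *Cd68* had 50.4 TPM. Alternatives were a pseudocount of 0.1, a minimum of 5 TPM, no minimum, median-ratio rescaling, counts scaled to the library total without length, and FPKM. The longest annotated transcript as length was added after the data were seen. The script of the comparisons was tested on simulated counts. Promoter windows came from RefSeq on GRCm38.p6, and *Col1a1*, *Col2a1*, *Col4a3*, *Col5a2*, *Col9a3*, *Col12a1*, *Col14a1*, *Col22a1* and *Col26a1* had no entry. Values were computed with scipy 1.17.1, pandas 2.3.3 and numpy 2.4.6 in Python 3.11.15, and plots drawn with matplotlib 3.10.9.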

Additional observations from a re-analysis of the deposited data

Results flagged for a closer look

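For *Col4a1*, *Col4a2*, *Col6a1*, *Col9a2*, *Col17a1*, *Col18a1* and *Col22a1*, the difference between 5C and mES medium, or between Oct4GFP+ and Oct4GFP- cells, had opposite signs in the other pair of libraries. With 1 library a group none of these differences between pairs was tested. All values are differences of log2(TPM + 1).

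*Col18a1* was higher in 5C than in mES medium by 2.13 in Oct4GFP+ cells, and its difference in Oct4GFP- cells was -1.17. Read by the sort, Oct4GFP+ minus Oct4GFP- was -1.85 in mES medium and 1.45 in 5C medium. The difference of *Col4a1* between the media was -0.60 in Oct4GFP- and 3.57 in Oct4GFP+ cells, and that of *Col4a2* was -0.62 and 2.85. For *Col6a1*, 5C minus mES medium was -1.55 in Oct4GFP- and 1.27 in Oct4GFP+ cells, the latter from 49 against 4 counts. For *Col17a1* it was -1.15 in Oct4GFP- and 1.76 in Oct4GFP+ cells. The difference of *Col9a2* between Oct4GFP+ and Oct4GFP- cells was 0.74 in mES medium and -1.30 in 5C medium. *Col22a1*, a chain of tissue junctions, was low throughout, with 0.48 in Oct4GFP- and -0.95 in Oct4GFP+ cells for 5C minus mES medium, and 0.99 in mES and -0.45 in 5C medium for Oct4GFP+ minus Oct4GFP-. In the Oct4GFP+ cells it had 35 and 44 counts in 5C and mES medium, at gene lengths that RSEM set per library, and the part of length in its TPM was not tested.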

How the results depend on the processing

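No paired analysis was possible because each group has 1 library and groups share fewer than 2 replicate numbers, and no replicate could be left out. An additive fit of the 4 sorted libraries over medium and reporter, with their interaction as its error, was not run. The summed level of the chains, as a percent of mES-Oct4GFP- cells, moved between 59.6 and 62.6 in 5C-Oct4GFP-, 4.48 and 5.49 in mES-Oct4GFP+, and 37.1 and 39.9 in R1 ESCs-primed over the alternatives run. Counts of chains past 2-fold stayed within 1.5 times of those reported except as follows. In mES-Oct4GFP+ against mES-Oct4GFP- cells, higher chains were 1 in place of 0 with a pseudocount of 0.1, with median-ratio rescaling and with counts scaled to the library total. With a minimum of 5 TPM, higher chains in 5C-Oct4GFP- against mES-Oct4GFP- cells were 3 in place of 6, lower chains in 5C-Oct4GFP+ against mES-Oct4GFP+ cells 1 in place of 4 (1 also with FPKM), and lower chains in primed against 5C-Oct4GFP+ cells 2 in place of 4. In naive against 5C-Oct4GFP+ cells, higher chains were 2 in place of 0 with a pseudocount of 0.1 and 3 with counts scaled to the library total. Of 1177 differences of single chains under an alternative, 1107 kept their side of 2-fold, 45 passed it newly, 24 no longer passed and 1 passed it on the other side, *Col15a1* in primed against 5C-Oct4GFP+ cells, with a log2 difference of 1.24 with counts scaled to the library total in place of -0.09. With the longest annotated transcript as length, *Col6a1*/*Col6a3* became 1.74 in primed and 1.30 in R1 ESCs-primed and *Col6a2*/*Col6a3* 1.33 in 5C-Oct4GFP- cells, on the other side of 1, while 13 of the 68 ratios computed in this way moved outside the interval of the reported ratio without such a reversal, among them *Col5a1*/*Col5a2* in mES-Oct4GFP- cells, whose interval included 1, at 0.908. The cause was not tested. Where a chain had few counts, as type VI chains in mES-Oct4GFP+ and naive cells, depth limits its ratio to the wide interval given.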
